A study of Homo sapiens with 6 samples.

Results

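The mRNAs of 10 genes that license DNA replication origins and build the replicative helicase were followed in KHM-5M cells treated with sodium selenite (SS), alone or together with N-acetylcysteine (NAC). The genes were taken by symbol from the deposited table of 17687 genes: MCM2, MCM3, MCM4, MCM5, MCM6, MCM7, MCM10, CDC45, CDC6 and CDT1. All 10 were found in the table, and all 10 passed the filter on low counts. KHM-5M is a human anaplastic thyroid cancer line without a BRAF mutation, grown in RPMI medium with fetal bovine serum. The SS group received sodium selenite, and the SS+NAC group sodium selenite with NAC, a thiol antioxidant. The control group is labelled only as control, and the study names phosphate-buffered saline as the control in several of its other assays. Each of the 3 groups has 2 libraries, described by the study as biological replicates of this cell line, so p-values measure the spread between such replicates of 1 line. The sample titles carry the number 0 for control and 5 for SS without a unit, which was not read as a dose. The selenite dose and the time of exposure of the sequenced cells are not otherwise given in the labels or the study's text. For NAC, the study gives a working concentration for cell culture in general.

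Before a cell copies its DNA, the origin recognition complex recruits CDC6 and CDT1, which load a pair of rings made of MCM2 to MCM7 onto each origin. This step, called licensing, takes place late in mitosis and in G1. At the start of S phase, kinases convert the loaded rings into active helicases by the addition of CDC45 and the GINS complex, and MCM10 is needed for the helicase to unwind DNA. Most of these genes are targets of the E2F transcription factors, so their mRNAs are high in dividing cells and are widely read as marks of proliferation. The MCM proteins are loaded in excess of the origins that fire, and CDT1 is held in check by geminin and by degradation.

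Promoters of 8 of the 10 genes were found in the RefSeq table for GRCh38.p14, each as 250 bases before and 50 bases after a transcription start. They were searched on both strands for the E2F site TTTNNCGC, in which each N is a C or a G, for CCAAT, and for the CHR element of late cell cycle genes, as TTTGAA or TTCGAA. The E2F site was found in 6 of these 8 genes (MCM2, MCM3, MCM6, MCM7, CDC6 and CDT1), while 3.31% of 35116 promoters of this length hold it. CCAAT, which is bound by NF-Y, was found in MCM3, MCM6, MCM7, MCM10, CDC45 and CDC6, against 34.6% of all promoters. The CHR letters were found in 1 of the 8 genes (MCM6, at -246), against 16.4% of all promoters. A gene was counted where any of its listed starts held the letters, whereas the shares of all promoters are per start. MCM7 and CDC45 have 3 listed starts each. The E2F site occurred at 1 of these for MCM7 and at none for CDC45. The promoters below belong to the 4 genes with a called change in the main comparisons of scaled counts, described below, and to MCM6. In those comparisons MCM6 had the smallest difference between SS and control, and its promoter holds the most E2F matches. Other treatments of length and scaling, given below, called other genes too and left other genes with the smallest difference. E2F sites and CCAAT boxes on either strand are in capitals, and CHR letters are not. Each runs 5′ to 3′ on the strand of the gene: CDT1 at chr16:88803539-88803838 (plus), MCM7 at chr7:100101348-100101647 (minus), CDC45 at chr22:19479670-19479969 (plus), MCM3 at chr6:52284693-52284992 (minus) and MCM6 at chr2:135876394-135876693 (minus).
CDT1: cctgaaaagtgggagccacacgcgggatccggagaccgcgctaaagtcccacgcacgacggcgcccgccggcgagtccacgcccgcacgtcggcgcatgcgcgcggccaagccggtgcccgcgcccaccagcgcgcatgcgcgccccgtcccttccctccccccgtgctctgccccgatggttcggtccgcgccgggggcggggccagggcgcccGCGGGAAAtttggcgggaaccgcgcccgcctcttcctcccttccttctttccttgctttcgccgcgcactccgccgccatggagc
MCM7: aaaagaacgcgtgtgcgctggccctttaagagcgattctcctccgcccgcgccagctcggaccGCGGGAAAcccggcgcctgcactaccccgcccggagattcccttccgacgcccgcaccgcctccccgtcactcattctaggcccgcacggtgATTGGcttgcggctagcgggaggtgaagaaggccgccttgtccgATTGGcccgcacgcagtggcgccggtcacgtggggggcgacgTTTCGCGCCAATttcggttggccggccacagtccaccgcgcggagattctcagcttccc
CDC45: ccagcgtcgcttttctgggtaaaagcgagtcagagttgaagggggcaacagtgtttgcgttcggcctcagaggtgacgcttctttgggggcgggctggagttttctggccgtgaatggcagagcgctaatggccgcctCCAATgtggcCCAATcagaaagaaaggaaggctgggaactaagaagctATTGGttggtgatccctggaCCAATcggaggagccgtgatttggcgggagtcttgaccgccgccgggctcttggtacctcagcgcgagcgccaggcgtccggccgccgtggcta
MCM3: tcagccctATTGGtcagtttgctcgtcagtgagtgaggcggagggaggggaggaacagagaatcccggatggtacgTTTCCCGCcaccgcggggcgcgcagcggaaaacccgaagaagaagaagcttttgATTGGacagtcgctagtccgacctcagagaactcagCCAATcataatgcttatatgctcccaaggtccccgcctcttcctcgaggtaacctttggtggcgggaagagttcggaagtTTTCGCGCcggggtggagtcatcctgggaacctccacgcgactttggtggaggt
MCM6: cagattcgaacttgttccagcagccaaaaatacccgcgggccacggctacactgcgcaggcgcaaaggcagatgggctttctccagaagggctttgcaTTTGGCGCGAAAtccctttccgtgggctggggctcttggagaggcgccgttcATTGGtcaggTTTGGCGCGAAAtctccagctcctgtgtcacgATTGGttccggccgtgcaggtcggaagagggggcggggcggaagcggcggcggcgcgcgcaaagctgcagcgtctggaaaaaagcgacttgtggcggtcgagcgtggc
The single E2F match of CDT1 starts 35 bases before its transcription start. In MCM7, the matches begin at -187 and -9, and the second of them overlaps a CCAAT box at -2. MCM6 holds 4 matches at -152, -148, -90 and -86, in which neighbours overlap on opposite strands. A match is a description of the letters and was not tested as a binding site.

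The libraries held between 17645545 and 23810056 expected counts, and 14005 genes were tested. The fold change between SS and control fell with transcript length across the tested genes (Spearman's rho of -0.68, across 14004 genes, which are not independent replicates), and so did that between SS and SS+NAC (rho of -0.64), whereas rho was -0.037 between SS+NAC and control. The comparisons were therefore also fitted with an offset that removes the length trend of each library. The length implied by the counts and FPKM values ran from 1889 bases for CDC45 to 4859 for MCM4, with a median of 3120 for the 10 genes and 3056 for all tested genes. Replicates differed by more than counting noise, with a chi-square per degree of freedom of 3.05 in control, 7.12 in SS and 11.7 in SS+NAC. SS+NAC replicate 2 had the lowest level of 8 of the 10 genes, and SS replicate 2 the highest level of 6. Of the 6 thyroid lineage markers in the table, 3 had at least 1 CPM (counts scaled by library size) in every library. These were PAX8 (253 to 278 CPM), HHEX (23.7 to 30.8) and FOXE1 (1.23 to 2.62). NKX2-1 had at most 0.23 CPM, SLC5A5 0.78 to 1.28 and thyroglobulin (TG) 0.95 to 1.39. Of 5 epithelial markers, KRT8 and KRT18 made up nearly all of the sum, which was 1715 and 1794 CPM in control, 2184 and 2654 in SS and 1338 and 1698 in SS+NAC, while EPCAM had at most 5.22, KRT19 at most 1.87 and CDH1 at most 0.70. The 5 fibroblast markers summed to 639 to 654 CPM in control, 595 to 597 in SS and 701 to 803 in SS+NAC, nearly all of it COL1A1. PDGFRB had 12.8 to 16.8 CPM over the libraries, while COL1A2, COL3A1 and DCN had at most 0.22. The 4 endothelial markers summed to at most 3.01 CPM and the 5 leukocyte markers to at most 2.74, mostly CD14. The part of these markers in the results below was not tested.

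In GENCODE release 29 on GRCh38, MCM7 lies on the minus strand of chromosome 7 from 100092728 to 100101940, with microRNA genes MIR25, MIR93 and MIR106B in its introns. It shares 392 exonic bases with AP4M1 on the opposite strand. CDT1 lies on the plus strand of chromosome 16 from 88803213 to 88809258, and CDC45 on the plus strand of chromosome 22 from 19479459 to 19520612. MCM5 is on the same chromosome from 35400063 to 35425430. MCM3 occupies chromosome 6 from 52264009 to 52284881 on the minus strand, MCM2 chromosome 3 from 127598223 to 127622436 on the plus strand, and MCM6 chromosome 2 from 135839626 to 135876426 on the minus strand. MCM2 shares 1113 exonic bases with the antisense gene AC023593.1. MCM4 is on chromosome 8 from 47960185 to 47978160, CDC6 on chromosome 17 from 40287633 to 40304657, and MCM10 on chromosome 10 from 13161554 to 13211104, all on the plus strand. The table's own spans, also on GRCh38, are wider for some of these genes. MCM4 begins 186946 bases earlier there, and MCM3 is listed on the plus strand. The part of neighbouring transcripts in their counts was not tested. Library strand is not given in the sources used here, and reads of overlapping genes on opposite strands may not be separable.

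In the control cells, the levels of the 10 mRNAs were compared per length, in TPM (transcripts scaled to a fixed total per library). MCM7, a subunit of the helicase ring, stood highest at 348 ± 11.97 TPM (SD, n = 2), and MCM10, the factor that helps the helicase start, lowest at 28.7 ± 0.375. Between them came MCM5 (229 ± 13.1), MCM4 (187 ± 1.44), MCM3 (162 ± 6.79) and MCM2 (119 ± 3.42). CDC45, which holds the active helicase together with GINS, followed at 88.8 ± 4.38 TPM, then the loaders CDT1 (73.7 ± 1.84) and CDC6 (68.4 ± 1.56), and the ring subunit MCM6 (68.0 ± 1.63). Neighbours in this order did not overlap between control libraries, except for CDC6 and MCM6. The 6 ring subunits enter the complex in equal numbers, but their mRNAs did not stand at equal levels. MCM7 exceeded MCM6 by 5.08-fold and 5.16-fold in the control libraries, by 6.13-fold and 6.74-fold in SS, and by 5.43-fold and 4.68-fold in SS+NAC. In SS, MCM3 (151 ± 10.1 TPM) and MCM4 (147 ± 6.37) exchanged places, and their SS libraries overlapped. The order in SS+NAC was the same as in control.

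To see whether selenite changed the mRNAs of this machinery, SS was compared with control on CPM scaled by TMM factors. Of the 10 genes, 2 rose and none fell by edgeR's quasi-likelihood test, with the Benjamini-Hochberg adjusted p called at 0.05 or less. The genes that rose were CDT1, which brings the MCM ring to the origin, and MCM7. The other 8 did not pass, with fitted differences from -10.8% for MCM10 to 17.6% for MCM5. In bulk RNA, a change in the share of cells that express a gene and a change per cell cannot be told apart.

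CDT1 had 97.8 and 103 CPM in the control libraries, 121 and 139 in SS and 119 and 99.7 in SS+NAC. Both SS libraries lay above both controls, while the SS+NAC libraries overlapped with control. The log2 fold change between SS and control was 0.37 (standard error, SE, of 0.102 and edgeR adjusted p = 0.0150), a rise of 29.1%. CDC6, the ATPase that works beside CDT1, had 101 and 107 CPM in control, 108 and 111 in SS and 110 and 95.9 in SS+NAC. Its SS libraries were barely above the controls, with a log2 fold change of 0.073 (SE 0.0825, edgeR adjusted p = 0.514). Without SS replicate 2, the log2 fold change of CDT1 was 0.26 (edgeR adjusted p = 0.143), and without control replicate 1 it was 0.33 (edgeR adjusted p = 0.112).

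**Figure D1:**
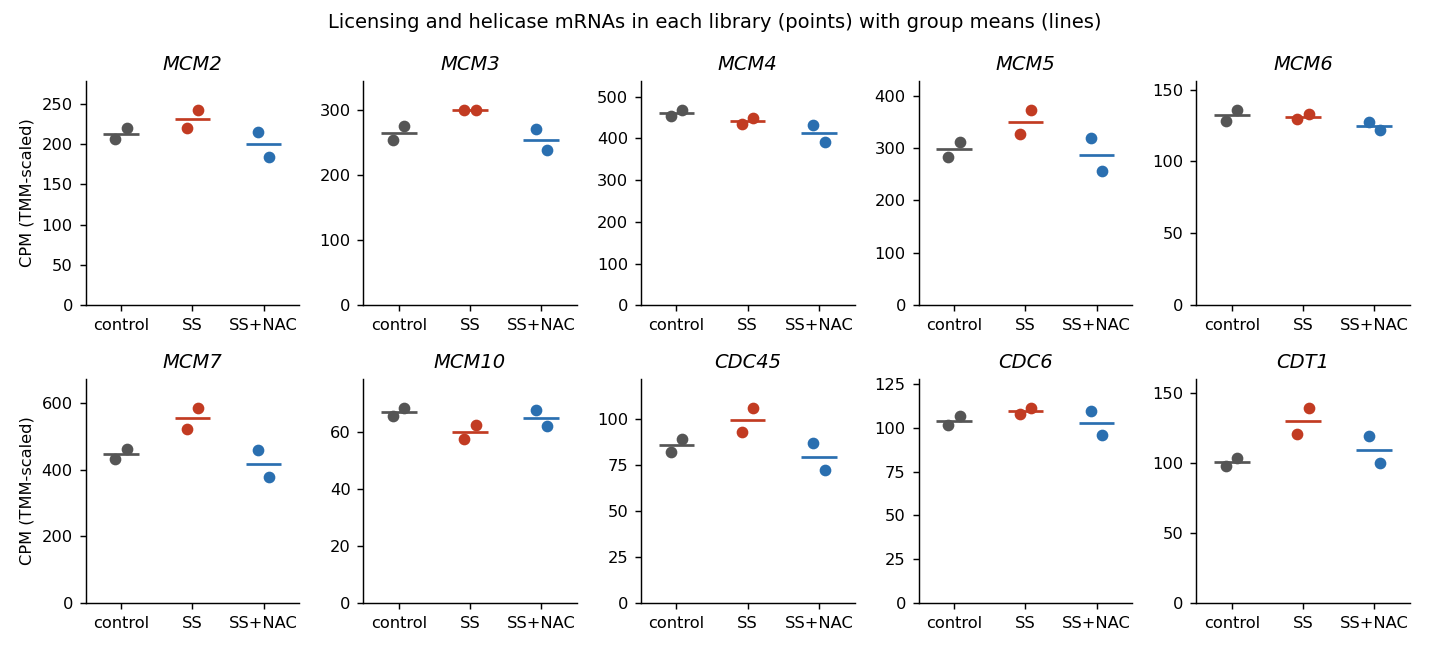
TMM-scaled CPM of the 10 genes in each of the 6 libraries (points; lines, means of 2 libraries; each vertical axis starts at 0). CDT1 and MCM7 are highest in the SS libraries, the SS libraries of MCM6 lie within its control range, and MCM10 is the lowest in level.

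Among the ring subunits, MCM7 had 432 and 462 CPM in control, 522 and 585 in SS and 459 and 377 in SS+NAC. Both SS libraries were above all the other libraries. MCM7 rose by 0.31 on the log2 scale between control and SS (SE 0.103, edgeR adjusted p = 0.0369), or by 23.6%. Its call was lost without control replicate 1 (log2 fold change 0.26, edgeR adjusted p = 0.229), without control replicate 2 (0.38, edgeR adjusted p = 0.0616) and without SS replicate 2 (0.22, edgeR adjusted p = 0.231).

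MCM5 had 282 and 312 CPM in control and 327 and 372 in SS, and 318 and 255 in SS+NAC. The SS libraries stood above the controls, but the log2 fold change of 0.23 did not pass (SE 0.111, edgeR adjusted p = 0.119). MCM3, one of the helicase subunits next to MCM5 in the ring, had 255 and 276 CPM in control, 299.8 and 299.7 in SS, and 271 and 239 in SS+NAC. Its SS libraries nearly coincided and lay above the others, with a log2 fold change over control of 0.18 (SE 0.0837, edgeR adjusted p = 0.117). MCM2, a subunit that also binds histones, had 207 and 220 CPM in control, 221 and 242 in SS, and 215 and 184 in SS+NAC. The lower SS library was within 1 CPM of the higher control, and the log2 fold change was 0.12 (SE 0.0919, edgeR adjusted p = 0.337).

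MCM4 had 453 and 468 CPM in control, 434 and 448 in SS and 433 and 392 in SS+NAC. Both treated groups lay below the controls, with a fitted difference of -4.19% in SS, a log2 fold change of -0.062 (SE 0.0790, edgeR adjusted p = 0.570). MCM6, which forms a subcomplex with MCM4 and MCM7, had 128 and 136 CPM in control, 130 and 133 in SS and 128 and 122 in SS+NAC. The SS libraries lay within the control range, and the log2 fold change was -0.0087 (SE 0.0723, edgeR adjusted p = 0.937).

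Of the factors that activate the ring, CDC45 had 82.0 and 88.9 CPM in control, 92.7 and 106 in SS and 86.9 and 71.9 in SS+NAC. Its SS libraries were the highest, with a log2 fold change over control of 0.21 (SE 0.103, edgeR adjusted p = 0.123). MCM10 had 65.6 and 68.3 CPM in control, 57.3 and 62.2 in SS and 67.4 and 62.1 in SS+NAC. Both SS libraries were below both controls, with the lowest log2 fold change of the 10 genes, -0.16 (SE 0.0795, edgeR adjusted p = 0.125).

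Over all tested genes the called share was 18.6% in the upward and 21.4% in the downward direction, so 2 called rises of 10 are close to the share over all genes, and 0 called falls are below it. Both SS libraries exceeded both controls for 7 of the 10 genes, and for 36.3% of all genes. Both were lower for MCM4 and MCM10, as for 36.9% of all genes. The median log2 fold change of the 10 genes was 0.15, compared with 0.00304 over all tested genes. The fitted differences ran from -0.16 to 0.37 with SEs of 0.0723 to 0.111. Counting error was at most 2.91% (1180 counts of MCM10 in control replicate 1). None of the 10 was called without SS replicate 2 or without control replicate 1, only CDT1 without control replicate 2, and 4 (CDT1, MCM7, MCM5 and CDC45) when either SS+NAC library was left out of the fit.

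**Figure D2:**
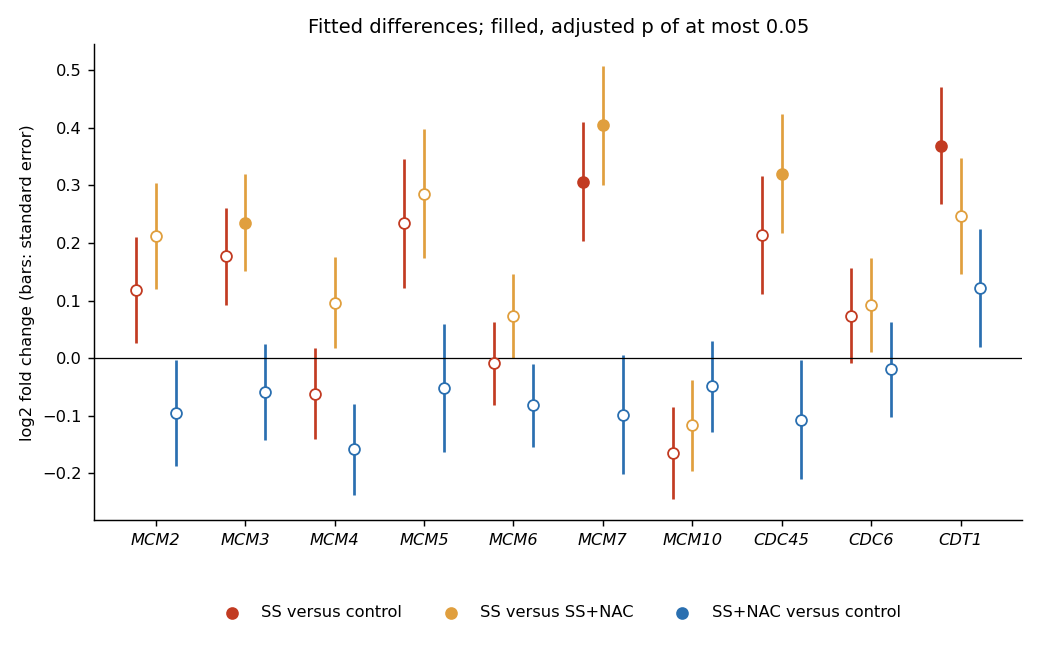
Log2 fold change (vertical axis; bars, SE of the edgeR fit) of each gene in the 3 comparisons, with filled points for called genes (adjusted p of 0.05 or less). CDT1 (0.37) and MCM7 (0.31) are filled between SS and control, MCM7, CDC45 and MCM3 between SS and SS+NAC, and none between SS+NAC and control.

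The sizes and in part the directions of these differences depended on how transcript length and scaling were treated. After the offset for length, all 10 log2 fold changes between SS and control were above 0, with a median of 0.19 against 0.00954 for all genes. MCM4 moved from -0.062 to 0.21, MCM10 from -0.16 to 0.080 and CDC45 from 0.21 to 0.0057. None of the 10 was called with the offset, under which 9.23% of all genes were called. CDT1 kept the largest value at 0.33 (edgeR adjusted p = 0.0649), while MCM7 stood at 0.24 (edgeR adjusted p = 0.153). With the offset, 5 of the 10 and 25.4% of all tested genes had an unadjusted p under 0.05 in edgeR, compared with 2 of the 10 and 48.8% of all genes without it.

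In TPM, where every library has the same total, the median gene itself fell, from 13.2 and 12.7 TPM in control to 10.2 and 9.15 in SS. On log2(TPM + 1), the median difference of all genes was -0.24 and that of the 10 genes was -0.13, which is 0.11 above all genes. Counted against 0, only CDT1 (0.087) and MCM7 (0.042) had a positive difference on this scale. MCM4 (-0.34), MCM10 (-0.42), MCM6 (-0.28) and CDC6 (-0.21) were called lower by limma with adjusted p of 0.00170, 0.00220, 0.00870 and 0.0390, whereas 43.7% of all genes were called lower. In TPM units, MCM10 had 28.4 and 28.9 in control and 21.2 and 21.0 in SS. CDT1 had 72.4 and 75.0 TPM in control and 76.4 and 80.2 in SS. The direction for MCM2, MCM3, MCM5, CDC45 and CDC6 was thus upward on the TMM scale and downward in TPM, and CDT1 and MCM7 had a positive difference on all 3 scales. For MCM7 in TPM the libraries overlapped, with 340 and 357 in control and 354 and 362 in SS.

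**Figure D3:**
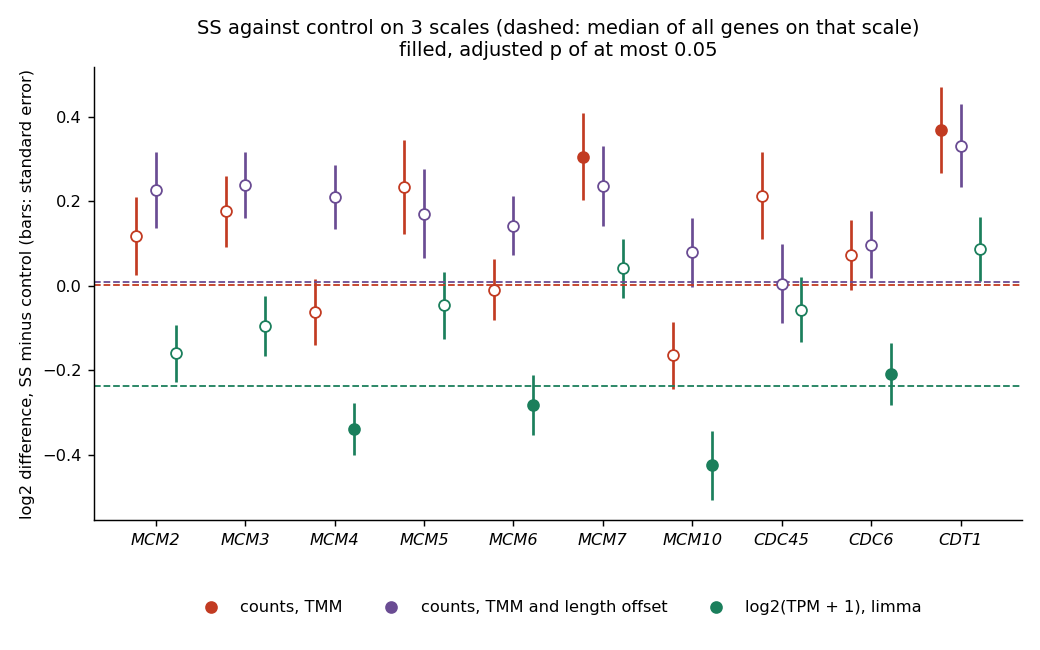
Log2 difference between SS and control for each gene on the TMM scale, with the length offset, and in log2(TPM + 1) (vertical axis; bars, SE; dashed lines, median of all genes tested on that scale). The TPM values lie lowest, as does the median of all genes on that scale (-0.24), and the values with the length offset are all above 0.

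With NAC added to selenite, none of the 10 genes differed from control by edgeR's quasi-likelihood test, and DESeq2 also called 0. None of the 10 had an unadjusted p under 0.05 in edgeR, while 16.1% of all tested genes did. Of all tested genes, 2.01% were called in this comparison. The log2 fold changes ran from -0.16 for MCM4 to 0.12 for CDT1, with SEs of 0.0723 to 0.111 and edgeR adjusted p of at least 0.353. Their median was -0.070, compared with -0.00244 over all genes. Both SS+NAC libraries lay below both controls for MCM4 and MCM6, and for 23.6% of all genes, and for the other 8 the groups overlapped. The SS+NAC replicates were far apart for MCM7 (459 and 377 CPM) and MCM5 (318 and 255 CPM). Without SS+NAC replicate 2 the median was 0.025, and without SS+NAC replicate 1 it was -0.18.

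Between SS and SS+NAC, which share selenite and differ in NAC, 3 of the 10 genes were called, all higher in SS. These comparisons use the same SS libraries as those with control and are not independent of them. The greatest of these differences was that of MCM7, at 0.40 on the log2 scale (SE 0.103, edgeR adjusted p = 0.00992). CDC45 was higher in SS by 0.32 (SE 0.103, edgeR adjusted p = 0.0277) and MCM3 by 0.24 (SE 0.0836, edgeR adjusted p = 0.0428). CDT1, called against control, had a log2 fold change of 0.25 here (SE 0.101, edgeR adjusted p = 0.0715). MCM5 had 0.29 (edgeR adjusted p = 0.0605) and MCM2 had 0.21 (edgeR adjusted p = 0.0865). MCM4, MCM6 and CDC6 lay between 0.073 and 0.096, and MCM10 at -0.12.

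Of all tested genes, 19.6% were called higher in SS than in SS+NAC, and 23.1% lower. A count of 3 of 10 is close to the share over all genes. Both SS libraries exceeded both SS+NAC libraries for 8 of the 10, compared with 32.3% of all genes, and the exceptions were MCM10 and CDC6. The median of the 10 genes was 0.22, against -0.034 over all genes. The median with the length offset was 0.23, against 0.00652 over all genes, and 4 genes were called, all higher, as were 7.04% of all genes. These were MCM4 (0.36, edgeR adjusted p = 0.0135), MCM3 (0.31, edgeR adjusted p = 0.0286), MCM7 (0.35, edgeR adjusted p = 0.0348) and MCM2 (0.32, edgeR adjusted p = 0.0386). CDC45 was no longer called, at 0.13 (edgeR adjusted p = 0.356). In TPM the median was -0.11, compared with -0.30 over all genes. MCM4, MCM6, MCM10 and CDC6 were called lower in SS there by limma, among 52.2% of all genes, and MCM7 alone stayed above 0 (0.088). Calls rested on single libraries. Without SS replicate 2 none of the 10 was called, without SS+NAC replicate 2 only MCM7 was, and without SS+NAC replicate 1 there were 6. There were 2 calls without a filter and with the compared libraries only.

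Lists of 91 further genes, all of which were tested, were set beside the 10. Between SS and control, 17 of them rose and 23 fell, with a median log2 fold change of 0.010. These shares are close to those over all genes (18.6% higher and 21.4% lower), which also stand behind the counts for each list below. Under the length offset, 4 rose and 8 fell, 12 of 91 beside 9.23% of all genes. In log2(TPM + 1), limma called 5 higher and 54 lower, with a median of -0.27, beside 6.08% higher and 43.7% lower of all genes and an all-gene median of -0.24. By list, in the order below, the TPM calls higher and lower were 0 and 7 of 11, 0 and 12 of 16, 4 and 10 of 23, 0 and 4 of 8, 0 and 8 of 13, 1 and 8 of 10, and 0 and 5 of 10. Between SS+NAC and control, none of the 91 was called by edgeR, 2 were by DESeq2, and 9 without SS+NAC replicate 1.

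In the list of other licensing factors, which also holds geminin and relatives of the MCM family, 2 of 11 genes rose and 2 fell between control and SS. ORC4, a subunit of the origin recognition complex, fell from 162 ± 9.95 to 92.4 ± 1.04 CPM, a log2 fold change of -0.80 (SE 0.0749, edgeR adjusted p = 0.000106). MCM8, a helicase of homologous recombination related to the ring subunits, fell by 0.56 (edgeR adjusted p = 0.000380). MCMDC2, a meiotic relative of the MCM family, rose by 0.50 (edgeR adjusted p = 0.00423). These 3 genes were also called with the length offset, at -0.40, -0.28 and 0.79. In TPM, MCMDC2 was not called (0.20, limma adjusted p = 0.149).

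Of 16 factors for origin firing and forks, 2 rose and 6 fell, with a median of -0.20. Under the length offset, 0 rose and 3 fell, with a median of -0.081. The median implied length of this list was 3766 bases, against 3056 for all tested genes. TOPBP1, a scaffold for helicase activation, fell by 0.65 (edgeR adjusted p = 0.000203), and TICRR, which brings CDC45 to the ring with it, by 0.68 (edgeR adjusted p = 0.000504). WDHD1, which links the helicase to polymerase alpha, fell by 0.75 (edgeR adjusted p = 0.000453), from 35.9 ± 4.20 to 21.4 ± 0.648 CPM. With the length offset, TOPBP1 (-0.33) and WDHD1 (-0.42) were still called, and TICRR (-0.27, edgeR adjusted p = 0.110) was not.

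Of 23 DNA polymerase and elongation genes, 7 rose and 1 fell, beside 18.6% and 21.4% of all genes, with a median of 0.093. The median implied length of this list was 2256 bases, against 3056 for all tested genes. Under the length offset, 2 rose and 0 fell, with a median of 0.057. PCNA, the sliding clamp of the polymerases, rose from 312 ± 5.02 to 446 ± 10.8 CPM, by 0.52 on the log2 scale (edgeR adjusted p = 0.000537). RPA3, a subunit of the single-strand binding protein, rose by 0.60 (edgeR adjusted p = 0.000423) and POLD4, the small subunit of polymerase delta, by 0.53 (edgeR adjusted p = 0.000681). Under the offset, RPA3 (0.41) and POLD4 (0.29) were called, and PCNA (0.17, edgeR adjusted p = 0.128) was not.

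For nucleotide supply, 2 of 8 genes rose and 1 fell. DUT, which clears dUTP, and TK1, thymidine kinase, rose by 0.46 and 0.39 (edgeR adjusted p of 0.000939 and 0.0155). RRM2B, the p53-inducible subunit of ribonucleotide reductase, fell by 0.51 (edgeR adjusted p = 0.00493). With the offset these values were 0.20, 0.100 and -0.23, and none of the 8 was called. In TPM, DUT (0.18, limma adjusted p = 0.0713) and TK1 (0.11, limma adjusted p = 0.258) were not called.

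In the E2F and retinoblastoma family, 6 of 13 genes fell and none rose, beside 21.4% and 18.6% of all genes. The median implied length of this list was 4382 bases, compared with 3056 for all tested genes. RB1, which restrains E2F factors, fell from 101 ± 10.6 to 63.9 ± 2.46 CPM, a log2 fold change of -0.66 (edgeR adjusted p = 0.000847). The related repressor RBL2 and the atypical factor E2F7 fell by 0.47 and 0.41 (edgeR adjusted p of 0.00313 and 0.00189). RB1 (-0.41) was the only gene of the list called lower with the length offset, and 1 gene was called higher. RBL2 and E2F7 stood at -0.25 and -0.090 with it.

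Of 10 genes for the degradation of CDT1 and CDC6, 2 rose and 3 fell. RBX1 and SKP1, parts of the ubiquitin ligases, rose by 0.59 and 0.33 (edgeR adjusted p of 0.00152 and 0.00691), and the scaffold CUL4B fell by 0.48 (edgeR adjusted p = 0.00167). With the offset they stood at 0.13, 0.16 and -0.18, and none of the list was called. In TPM, SKP1 was not called (0.052, limma adjusted p = 0.632). Of 10 G2/M genes, 2 rose and 4 fell. CENPF, a kinetochore protein, fell by 0.91 (edgeR adjusted p = 0.000143) and MKI67, the proliferation marker Ki-67, by 0.82 (edgeR adjusted p = 0.000319). The cyclin CCNB2 rose by 0.28 (edgeR adjusted p = 0.00978). Its call rested on single libraries. Its log2 fold change was 0.26 without control replicate 1, 0.33 without control replicate 2 and 0.25 without SS replicate 2. CENPF and MKI67 have implied lengths of 10173 and 11330 bases and CCNB2 of 1542. Their offset log2 fold changes were -0.36, -0.25 and -0.0089, and only CENPF was called (edgeR adjusted p = 0.0420). In TPM, CCNB2 was not called (0.0033, limma adjusted p = 0.968).

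**Figure D4:**
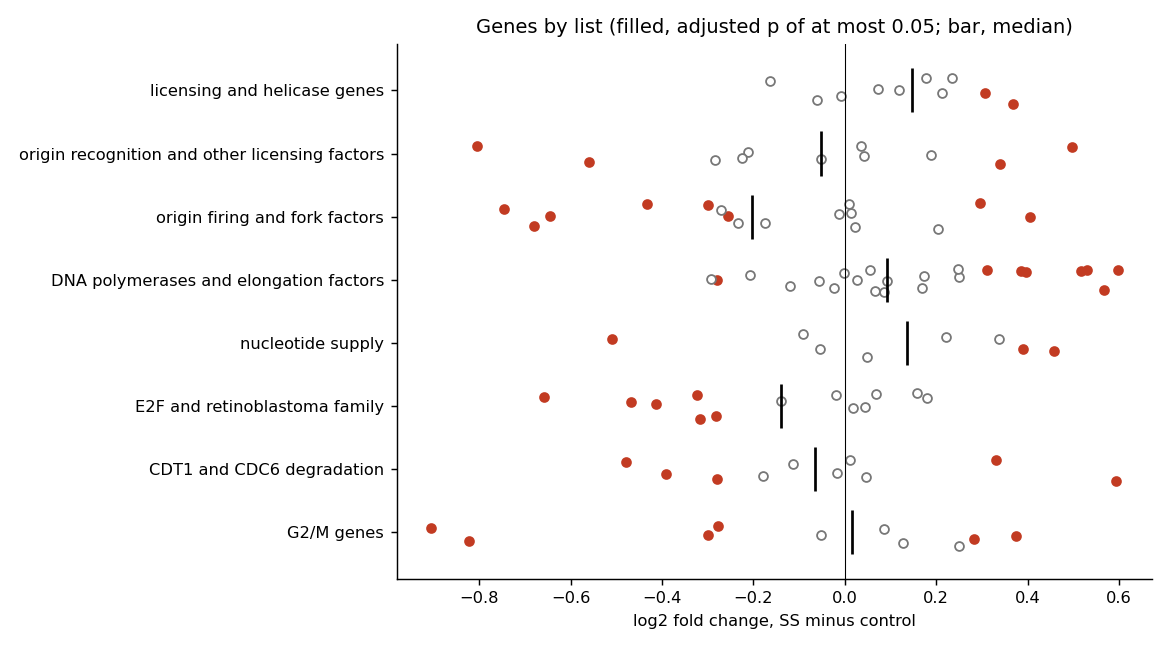
Log2 fold change between SS and control (horizontal axis) of the 10 genes and of 91 further genes by list (points; filled, called by edgeR at an adjusted p of 0.05 or less; bars, list medians; vertical scatter has no meaning). The 10 genes span -0.16 to 0.37, while the other lists reach from -0.91 (CENPF) to 0.60 (RPA3).

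**Figure D5:**
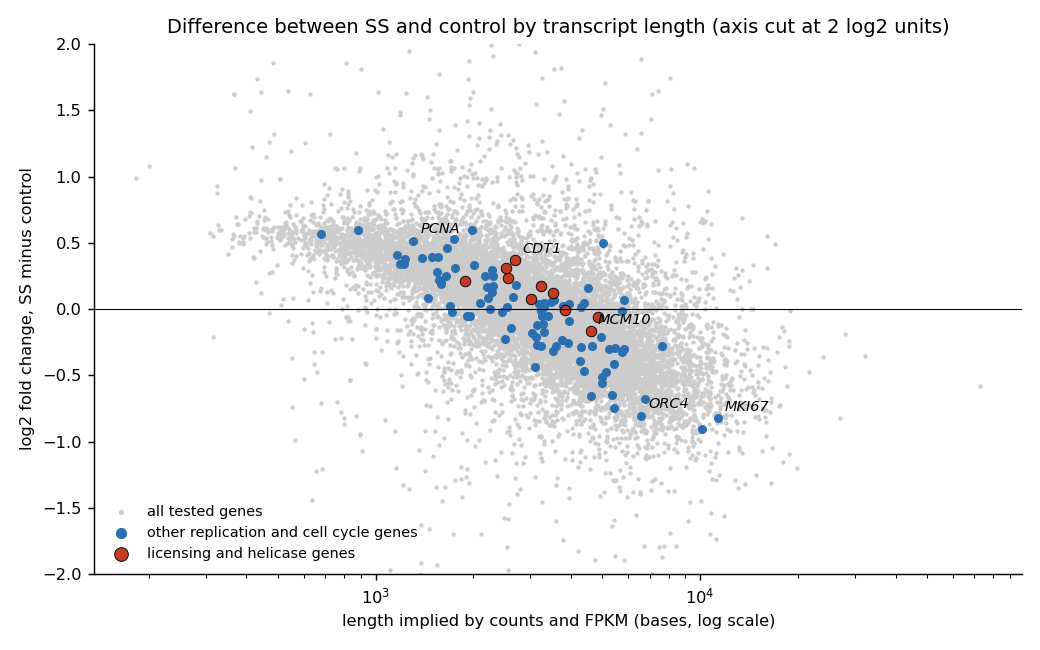
Log2 fold change between SS and control (vertical axis) against implied transcript length (log axis) for all tested genes, with the 10 genes and the 91 listed genes marked; 51 genes lie beyond 2 log2 units and are not drawn. The differences fall with length (rho of -0.68), and long genes such as CENPF and MKI67 lie lowest among those marked.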

How the data were processed

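RNA of KHM-5M cells was sequenced by the authors from oligo(dT)-purified RNA in single-end reads of 50 bases. Reads were cleaned in SOAPnuke and aligned by HISAT2 2.0.4, and levels came from RSEM 1.2.12, and the submitters' processing notes also list Bowtie2 2.2.5. The deposited table has 17687 genes with expected counts per library, which the authors obtained from RSEM. TPM and FPKM, which the authors also derived in RSEM, stand beside them. Left unused were 9 columns with group means and 9 of the authors' own comparisons (log2 fold changes, p-values and q-values).

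Counts were rounded, filtered by filterByExpr (edgeR 4.0.16 in R 4.3.3; 14005 genes passed), scaled with TMM (factors 0.920 to 1.06) and fitted for all 6 libraries with the quasi-likelihood test, with a biological coefficient of variation of 6.74%. P-values are two-sided, adjusted by the Benjamini-Hochberg method over all tested genes and called at 0.05 or less. CPM are scaled by TMM, and values with ± are mean and SD of 2 libraries. Lengths were computed from counts, FPKM and totals. The length offset was a lowess fit (span 0.3) per library of the deviation of log2 CPM on log length. TPM were tested with limma 3.58.1 on log2(TPM + 1), which understates changes of low genes, for genes with a mean TPM of at least 1. Alternatives were DESeq2 1.42.0, other scaling, filters and adjustments, a replicate block and leaving out each library. The fit was tested on data simulated with the same spread for every gene, no length trend, and changes larger than those of the 10 genes. That test therefore does not show how well changes of their size are found. The 10 genes and all lists were chosen with earlier results of these data known. Named genes of the other lists are the 3 called genes with the smallest p between SS and control; none was called between SS+NAC and control. Figures were made in Python 3.11.15 with matplotlib 3.10.9.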

Additional observations from a re-analysis of the deposited data

How the results depend on the processing

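The direction of CDT1 and MCM7 between SS and control was upward under every alternative run, but their calls were not stable. Of the 10 genes, 2 were called between SS and control; there was 1 without a filter and with the replicate block, 0 with the length offset, with the block and offset together, with Bonferroni adjustment and with a minimum of 1.5-fold, and 4 with the compared libraries only and, all lower, with limma on TPM. Leaving out each library gave 0 to 4. Between SS and SS+NAC, where 3 were called, there were 6 with upper quartile factors, with at least 10 counts in every library and with DESeq2, 1 with the block and offset, and 0 with Bonferroni adjustment or 1.5-fold, and 0 to 6 without single libraries. The 91 further genes gave 40 calls between SS and control, but 12 with the offset, 8 with block and offset, 3 with Bonferroni adjustment, 9 at 1.5-fold, 59 with limma on TPM (5 higher and 54 lower, against 17 and 23) and 23 to 53 without single libraries. Between SS and SS+NAC they gave 43, then 17, 8, 1 and 8 in the same order, 58 with limma on TPM (5 higher and 53 lower, against 27 and 16) and 30 to 49 without single libraries. Between SS+NAC and control they gave 0, with 2 by DESeq2 and 0 to 9 without single libraries.

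The median log2 fold change of the 10 genes was 0.15 between SS and control (0.081 to 0.23 without single libraries, -0.13 in TPM), 0.22 between SS and SS+NAC (0.11 to 0.33, and -0.11 in TPM) and -0.070 between SS+NAC and control (-0.18 to 0.025). Among the 10 genes and those named by rule from the other lists, signs that turned between SS and control were those of MCM4 (0.21), MCM6 (0.14) and MCM10 (0.0798) with the offset, with the same values with the block (MCM10 0.0800), CCNB2 (-0.0089 with the offset, -0.00909 with the block too) and MCM6 with upper quartile factors (0.037), with at least 10 counts in every library (0.022) and without single libraries (-0.050 to 0.060). In TPM, they were MCM2 (-0.16), MCM3 (-0.095), MCM5 (-0.046), CDC45 (-0.056) and CDC6 (-0.21). Between SS and SS+NAC, MCM10 turned with the offset (0.12, block included), and in TPM MCM2 (-0.12), MCM3 (-0.093), MCM4 (-0.24), MCM5 (-0.044), MCM6 (-0.26), CDC45 (-0.0099), CDC6 (-0.23) and CDT1 (-0.085) turned. CDC6 ran there from -0.0033 to 0.19 without single libraries. Between SS+NAC and control, MCM10 (0.0085) and CDC6 (0.026) turned in TPM, and CDC6 with upper quartile factors (0.000154). Without single libraries, the ranges there were -0.21 to 0.014 for MCM2, -0.15 to 0.028 for MCM3, -0.22 to 0.098 for MCM5, -0.25 to 0.037 for MCM7, -0.11 to 0.0086 for MCM10, -0.25 to 0.023 for CDC45, -0.12 to 0.074 for CDC6 and -0.016 to 0.25 for CDT1. The cause of these changes was not tested. Replicate numbers are not stated to pair libraries, and deviations from the group means of equal numbers correlated at 0.11, -0.11 and -0.17 between pairs of groups. With the replicate block, 2 genes were called between SS and SS+NAC, and the medians were 0.15, 0.22 and -0.071. Where a group keeps 1 library, it is assumed to vary like the others. Ranks of the 30 levels were all kept in FPKM, and 28 to 30 without single libraries.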

Other observations

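Geminin (GMNN), the inhibitor of CDT1, had 93.6 and 92.7 TPM in control, 98.8 and 98.1 in SS and 88.3 and 99.8 in SS+NAC. On the TMM scale it was called higher in SS than in control, with a log2 fold change of 0.34 (SE 0.0746, edgeR adjusted p = 0.00501), and with the length offset it stood at -0.035 and was not called. The ratio of CDT1 to GMNN in TPM was 0.773 and 0.809 in control, 0.774 and 0.817 in SS and 0.997 and 0.787 in SS+NAC. The ratio overlapped between control and SS, and the highest value belonged to SS+NAC replicate 1.

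The 5 genes whose centred log2 CPM lay nearest to the median profile of the 10 genes over the 6 libraries, among 9517 genes that averaged 10 CPM or more, were DEDD, MAEA, PRPF6, EIF4H and ACAD9. Their root mean square differences from this profile were 0.0157 to 0.0209 log2 units. Of the 10 genes, MCM2 lay nearest to their own median (0.0219) and MCM10 farthest (0.148). The profile was -0.073 and 0.022 in control, 0.063 and 0.16 in SS, and 0.00041 and -0.18 in SS+NAC.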
